A study of Sus scrofa with 6 samples.

Results

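Cytosolic ribosomal proteins are the protein components of the ribosome that translates nuclear messages. Their genes were followed in back muscle (longissimus dorsi) from 6 boars slaughtered at 150 days. They were chosen by symbol: every probe set with a single gene symbol that starts with RPL or RPS and a digit, or is RPSA, RPLP0, RPLP1 or RPLP2, without the RPS6K kinases and without symbols ending in L1. This gave 61 genes, on 93 probe sets, of the 6765 genes named on the array, and 24 of them had more than 1 probe set. Each gene is represented by its probe set of highest mean log2 intensity over the 6 arrays. By name, 35 genes belong to the large subunit, the 3 stalk proteins included, and 25 to the small subunit. The remaining one, RPS19BP1, encodes a protein that binds RPS19 and is not part of the ribosome. RPL10, RPL35A and RPL36 were listed only beside a second gene on the same probe set and were not analysed here.

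The study compared 3 Large White boars, the control breed, with 3 Northeastern Indigenous boars, which the labels say were kept alike. No treatment is given. Each animal gave 1 Affymetrix Porcine Genome Array, which reads the brightness of labelled RNA on groups of short probes (probe sets), with 1 intensity per probe set. The muscle was taken whole, so fewer cells of a type and less RNA per cell cannot be told apart.

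A cytosolic ribosome holds a small subunit, which decodes the message, and a large subunit, which joins the amino acids. Its proteins are needed in near equal numbers, and their messages share a pyrimidine-rich start that couples their translation to the growth-sensing kinase mTORC1. Transcripts for these proteins are abundant in nearly all cells, so several of them serve as reference genes in muscle expression studies. RPL3, a large-subunit protein near the catalytic centre, is a known exception in striated muscle, where the paralogue RPL3L takes its place in mature fibres. RPL3L was not analysed here.

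The arrays were unlike one another in ways that touch every value below. Median deposited intensities ran from 94.1 to 120.1. Of the 16 measured muscle fibre markers, 11 to 13 were among the 100 brightest probe sets on each Northeastern Indigenous array, against 1, 12 and 8 on Large White replicates 1, 2 and 3. Their summed intensity was 67014, 586111 and 280422 on Large White replicates 1, 2 and 3 and 500658 to 506164 on the Northeastern Indigenous arrays. The 9 adipocyte markers summed to 52316, 5683 and 33950 on the Large White arrays and to 5757 to 8855 on the others, and the 15 leukocyte markers to 26460, 9142 and 24498 against 2763 to 5780. The 11 fibroblast and matrix markers summed to 114747, 57522 and 111422 against 33680 to 51491. The defining muscle gene DES stood at deposited log2 intensities of 7.47, 13.44 and 11.56 on Large White replicates 1, 2 and 3 and of 13.21, 13.03 and 13.77 on the other arrays, so Large White replicate 1 is the array furthest from its tissue label. Probe sets for the 3′ and 5′ ends of GAPDH, a sign of RNA length, differed by 0.32 to 0.39 log2 units in Large White and 0.35 to 0.48 in Northeastern Indigenous boars. The same measure for EF1A was -0.04, 0.52 and 0.08 on Large White replicates 1, 2 and 3 and 0.43, 0.31 and 0.47 in the other breed, and for actin 2.55, 3.28 and 2.47 against 3.44, 2.74 and 3.36. Both placed Large White replicates 1 and 3 below all Northeastern Indigenous arrays, and EF1A placed replicate 2 above them.

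Ribosomal protein probe sets lay at the top of the brightness range. Of the 61 genes, 51 were among the brightest 1% of probe sets by mean. The probe set of RPS18, a small-subunit protein at the head of the subunit, was the brightest of all on each of the 6 arrays. RPL26, RPL30 and RPS15A had means of 5.58, 4.80 and 4.66, below the filter of 5.86 (the 40th percentile), and were left out of the fit, which covered the other 58. RPL37 passed at 7.32. Ribosomal protein genes have many near-identical processed copies in mammalian genomes, so the transcript behind any 1 probe set is uncertain. Brightness ranks describe probe sets, not transcript abundance.

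As deposited, most of the genes shared 1 order of arrays, in which the Large White boars lay on both sides of the Northeastern Indigenous ones. Relative to the Northeastern Indigenous mean, the 58 genes had a median of -0.55 log2 units in the first Large White boar, 0.31 in the second and -0.42 in the third. On the 3 Northeastern Indigenous arrays the medians were 0.02, 0.05 and -0.06. In 48 of the 58 genes, Large White replicates 1 and 3 were both below all Northeastern Indigenous arrays while replicate 2 was above all of them. The same order held in 9.5% of all 5445 genes that passed the filter. The EF1A end difference had this order too, and the part of RNA quality in it was not tested. None of the 58 genes separated the breeds on this scale. The median SD within Large White was 0.49 for the ribosomal protein genes and 0.48 for all genes, and within Northeastern Indigenous boars 0.08 and 0.25.

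**Figure D1:**
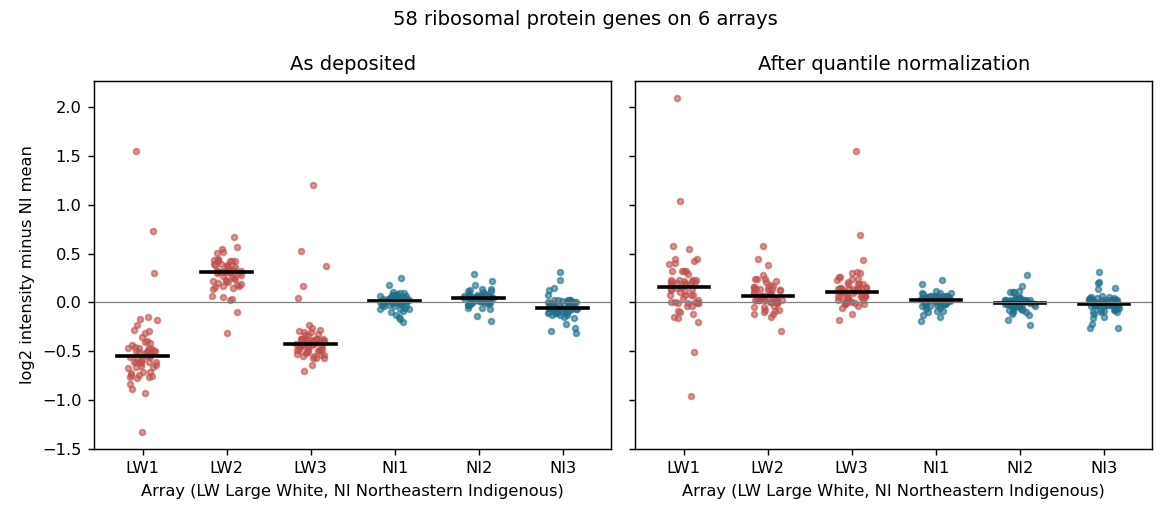
Each point is 1 of the 58 ribosomal protein genes, plotted as its log2 intensity minus its mean over the Northeastern Indigenous (NI) arrays, for each array, with Large White (LW) arrays in red; black lines are medians. As deposited the Large White medians are -0.55, 0.31 and -0.42, and after quantile normalization they are 0.16, 0.07 and 0.11.

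Both subunits shared the pattern. The 30 large-subunit genes without the stalk had deposited medians of -0.52, 0.31 and -0.39 on Large White replicates 1, 2 and 3, and the 24 small-subunit genes had -0.59, 0.31 and -0.44. The breed difference, Northeastern Indigenous minus Large White, had a median of 0.22 for the large subunit, 0.24 for the small subunit and 0.21 for the stalk. After quantile normalization, which gives every array the same distribution of intensities by rank, these medians were -0.10, -0.09 and -0.11. The spike-in hybridization controls, bacterial and phage transcripts added to each sample, had the same signs as deposited, with medians of -0.72, 0.13 and -0.72 on the Large White arrays.

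The sign of the breed difference depended on the scale. As deposited, the difference was above 0 in 54 of 58 ribosomal protein genes and its median was 0.22, beside 51.0% of all genes and a median of 0.02. After quantile normalization 49 of 58 were negative, with a median of -0.10, beside 45.4% of all genes and a median of 0.09. RPS18 stood at exactly 0.00, because the brightest probe set of every array is given the same value. With arrays centred on their medians the difference was 0.36, against 0.16 for all genes, and with arrays centred on the hybridization controls it was -0.25, against -0.46. Relative to the median of all genes, the ribosomal protein genes thus stood at 0.21 on each of the 3 scales that shift a whole array and at -0.18 after quantile normalization. The 0.21 is a single result, since shifting an array moves all its genes alike.

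**Figure D2:**
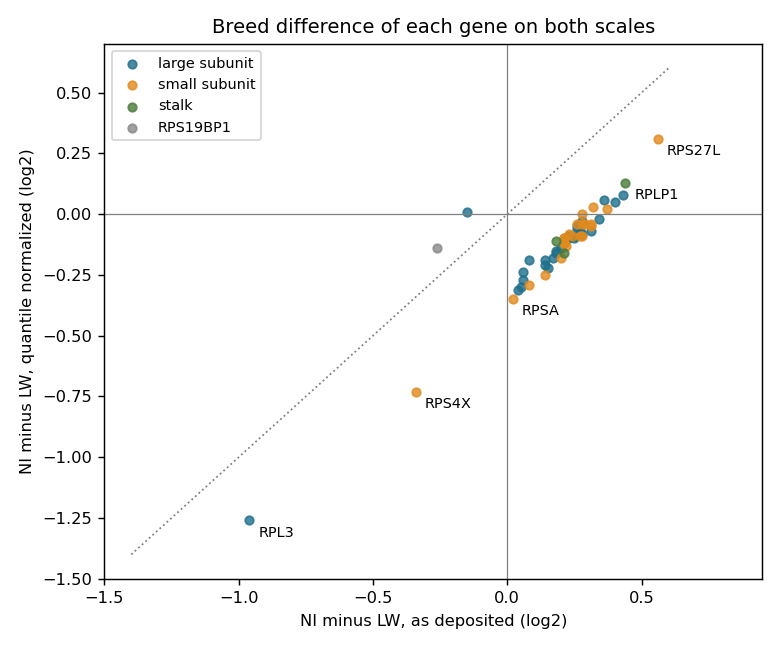
Each point is 1 of the 58 genes, with its Northeastern Indigenous minus Large White difference as deposited on the x axis and after quantile normalization on the y axis, both in log2 units; the dotted line marks equal values. Most genes lie right of 0 and below 0, with medians of 0.22 and -0.10, while RPL3 (-0.96, -1.26) and RPS4X (-0.34, -0.73) are negative on both axes.

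Measures that do not depend on scaling also split by array. The ribosomal protein genes held 5.54% of the summed intensity of all probe sets in the first Large White boar, 7.97% in the second and 5.81% in the third, against 6.58% to 6.91% on the Northeastern Indigenous arrays. The breeds overlapped, with the lowest and the highest share both in Large White. By rank the order was different. Large White arrays had 32, 26 and 30 ribosomal protein genes among their 100 brightest probe sets, and Northeastern Indigenous arrays 24, 22 and 23. The median rank of the 58 genes, where rank 1 is the brightest, was 96.0, 110.5 and 98.5 in Large White and 117.0, 120.5 and 118.5 in Northeastern Indigenous boars. The ranks did not overlap between breeds. Large White replicate 1, with the most ribosomal protein genes among its 100 brightest, had 1 muscle fibre marker there. Large White replicate 2, with 26 ribosomal protein genes, had 12 such markers, beside 11 to 13 on the Northeastern Indigenous arrays. The part of those markers in the ranks was not tested.

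**Figure D3:**
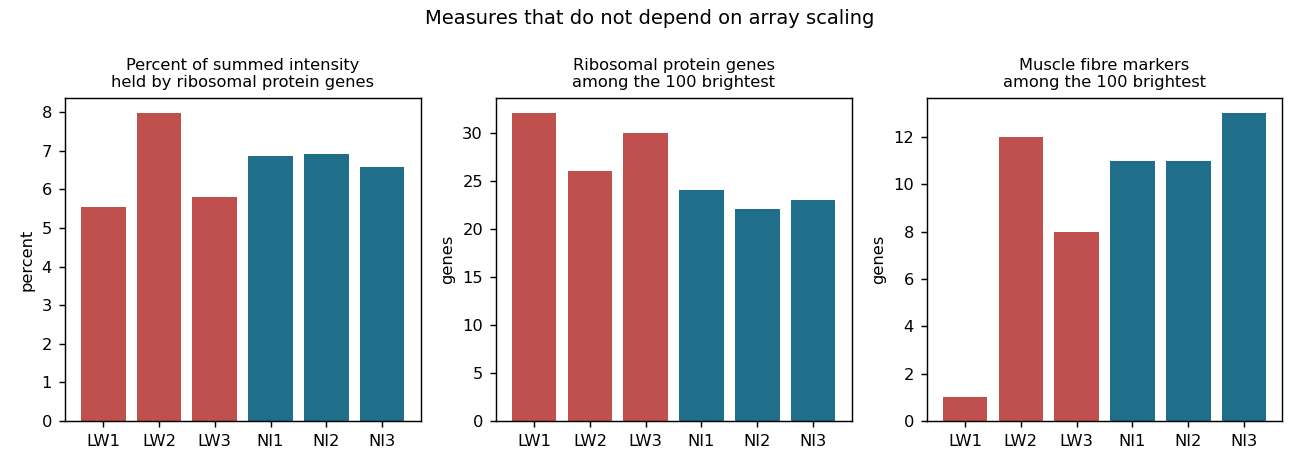
Bars give, for each Large White (LW) and Northeastern Indigenous (NI) array, the percent of summed intensity held by the 58 ribosomal protein genes, the number of those genes among the 100 brightest probe sets, and the number of 16 muscle fibre markers there. The intensity share spans 5.54% to 7.97% in Large White, around the 6.58% to 6.91% of the other breed, while the middle count is 26 to 32 against 22 to 24.

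In limma's fit over all probe sets, 0 of the 58 ribosomal protein genes passed an adjusted p under 0.05 on either scale, as did 0.00% of all 5445 genes. The smallest adjusted p among them was 0.224 after quantile normalization and 0.254 as deposited. At an unadjusted p under 0.05, 5 genes were lower in Northeastern Indigenous boars after quantile normalization, or 8.6%, beside 11.4% of all genes, and 0 were higher, beside 9.40%. As deposited, 1 was lower, beside 13.1% of all genes, and 0 were higher, beside 8.03%. Both shares of lower genes were under the background. Without overlap between breeds there were 15 genes lower after quantile normalization, beside 12.4% of all genes, and 1 higher, beside 15.9%. The 15 make up 25.9% of the 58. As deposited both counts were 0, beside 13.0% and 13.2%.

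Of the 58 fitted genes, RPL3 had the difference of largest size on both scales. RPL3 (Entrez 396768) had deposited log2 intensities of 13.58, 12.17 and 13.23 on Large White replicates 1, 2 and 3 and of 11.90, 12.32 and 11.87 on Northeastern Indigenous replicates 1, 2 and 3. Large White replicates 1 and 3 were the high arrays, while replicate 2 lay among the Northeastern Indigenous ones, so the breeds overlapped. The deposited difference was -0.96 ± 0.39 log2 units (SE; n = 3 per breed; limma adjusted p = 0.254). After quantile normalization it was -1.26 ± 0.48 (SE; adjusted p = 0.246), which is 2.40-fold higher in Large White, with means of 11.98 ± 0.25 against 13.24 ± 1.02 (SD).

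Set against the median ribosomal protein gene of the same array, a measure that no shift of an array can move, RPL3 stood at -0.43, -2.69 and -0.91 in Large White and at -2.70, -2.32 and -2.68 in Northeastern Indigenous boars. On the 2 Large White arrays where most ribosomal protein genes were dim as deposited, RPL3 was bright. Its difference was negative in all 18 alternative analyses, from -1.83 to -0.14. Without Large White replicate 2 it passed (-1.83, limma adjusted p = 0.00644), in a setting where 1855 of all 5445 genes passed, and against that replicate alone it was -0.14. The adipocyte markers, whose deposited medians on the same arrays were 5.64, 0.24 and 4.20 over the other breed's mean, and the leukocyte markers, at 2.52, 0.77 and 2.42, were highest where RPL3 was. Their part in its values was not tested.

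RPS4X had the most negative difference of the 24 fitted small-subunit genes on both scales. RPS4X (Entrez 397611), the X-linked gene of a small-subunit protein, had quantile normalized values of 14.69, 14.10 and 14.34 on the Large White arrays and 13.72, 13.82 and 13.39 on the Northeastern Indigenous ones. All 3 Large White arrays were above all 3 others. The same held in 8 of the 24 small-subunit genes, 6 of the 30 large-subunit genes without the stalk and 12.4% of all genes. The difference was -0.73 ± 0.20 log2 units (SE; n = 3 per breed; limma adjusted p = 0.224). As deposited the values were 14.11, 14.36 and 13.98 against 13.89, 14.03 and 13.52, which overlap, and the difference was -0.34 ± 0.26 (SE; adjusted p = 0.461).

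Relative to the ribosomal protein median of each array, RPS4X stood at 0.10, -0.50 and -0.16 in Large White and at -0.71, -0.60 and -1.03 in Northeastern Indigenous boars, with no overlap. On this measure RPSA, lower in Northeastern Indigenous boars, and RPLP1 and RPL27, higher in them, did not overlap either. The share over all genes was not counted. With quantile normalized arrays centred on that median the RPS4X difference was -0.65 ± 0.20 (SE; limma adjusted p = 0.218). Unlike RPL3, it did not rest on Large White replicates 1 and 3 alone, since against replicate 2 by itself it was -0.45. It was negative in all 18 alternatives, from -0.87 to -0.20, and passed in the one without Large White replicate 2 (-0.87, limma adjusted p = 0.0202). In that setting 1855 of all 5445 genes passed, and 2 of the 58 ribosomal protein genes. Relative to the ribosomal protein median, the nearest arrays of the breeds were Large White replicate 2 (-0.50) and Northeastern Indigenous replicate 2 (-0.60). Within Large White, RPS4X was highest on replicate 2 as deposited (14.36). After quantile normalization it fell from replicate 1 to 3 to 2, as did the adipocyte and leukocyte markers. Their part in RPS4X was not tested.

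**Figure D4:**
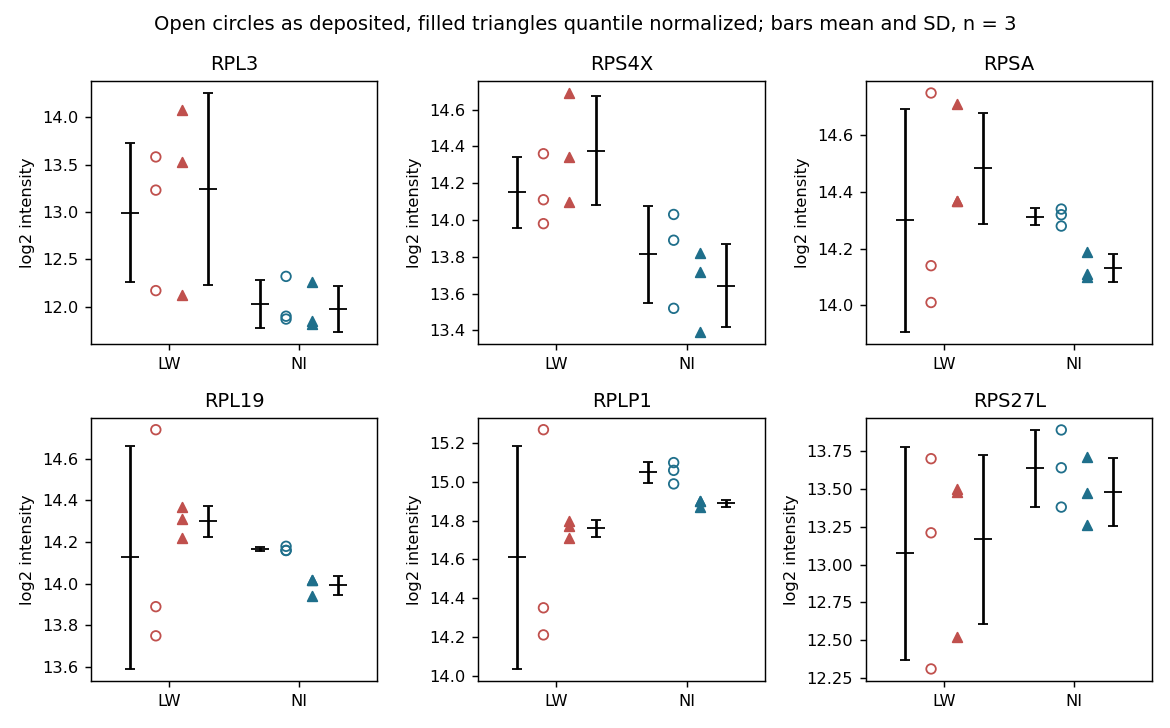
Log2 intensity of 6 genes in Large White (LW) and Northeastern Indigenous (NI) boars, with open circles as deposited and filled triangles after quantile normalization; black bars give the mean and SD of 3 arrays. RPS4X, RPSA and RPL19 separate the breeds only after quantile normalization (differences of -0.73, -0.35 and -0.31), and RPL3 overlaps on both scales.

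The other 3 genes with an unadjusted p under 0.05 were RPSA, RPL19 and RPL31, and their direction hung on the scale. RPSA, a small-subunit protein also known as the precursor of the laminin receptor, had deposited values of 14.14, 14.75 and 14.01 in Large White and 14.28, 14.32 and 14.34 in Northeastern Indigenous boars, a difference of 0.02 ± 0.28 (SE). Quantile normalized values were 14.71, 14.37 and 14.37 against 14.11, 14.10 and 14.19, a difference of -0.35 ± 0.14 (SE; adjusted p = 0.260). RPL19, a large-subunit protein often taken as a reference gene, read 14.31, 14.37 and 14.22 against 14.02, 13.94 and 14.02 after normalization, a difference of -0.31 ± 0.13 (adjusted p = 0.261). As deposited its difference was 0.04 ± 0.32, and the deposited values 13.75, 14.74 and 13.89 straddled 14.16, 14.16 and 14.18. RPL31, which sits by the exit of the peptide tunnel and is named because it completes the 5, differed by -0.27 ± 0.11 and, as deposited, by 0.06 ± 0.31.

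The stalk proteins RPLP0, RPLP1 and RPLP2, which draw elongation factors to the ribosome, did not share a sign after quantile normalization. RPLP1 read 14.77, 14.80 and 14.71 in Large White and 14.90, 14.90 and 14.87 in Northeastern Indigenous boars. It was the single ribosomal protein gene with no overlap in the higher direction, at 0.13 ± 0.11 (SE; adjusted p = 0.469). As deposited it stood at 14.21, 15.27 and 14.35 against 15.06, 15.10 and 14.99, which overlap, and differed by 0.44 ± 0.33. RPLP0 differed by -0.16 ± 0.11 and RPLP2 by -0.11 ± 0.19, both positive as deposited (0.21 and 0.18).

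RPS27L, a paralogue of RPS27 that the tumour suppressor p53 induces, had the largest positive difference. Its deposited values were 12.31, 13.70 and 13.21 in Large White and 13.89, 13.64 and 13.38 in Northeastern Indigenous boars. Large White replicate 1 was the low array and the breeds overlapped. The difference was 0.56 ± 0.38 as deposited and 0.31 ± 0.30 after normalization (SE; adjusted p = 0.534), and -0.01 without Large White replicate 1. RPS27 itself differed by 0.28 as deposited and -0.09 after normalization. Within each array RPS27 was above RPS27L by 1.44, 0.91 and 0.82 in Large White and by 0.55, 0.84 and 0.95 in the other breed, values that compare probe sets across arrays and not transcript numbers. The RPS27L probe set carries the suffix that marks probes shared between transcripts, as do 2 of the 61 representatives.

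RPL36AL, an intronless relative of RPL36A, was the steadiest gene as deposited in Large White. It read 12.81, 12.89 and 13.04 against 13.06, 13.02 and 12.90, with a difference of 0.08 ± 0.22 as deposited and -0.19 ± 0.20 after normalization. RPL22, an RNA-binding protein of the large subunit, differed by 0.28 and -0.03. The other genes of largest positive difference after normalization were RPL27 (0.08), RPL10A (0.06) and RPL23 (0.05), with 0.43, 0.36 and 0.40 as deposited. The smallest adjusted p of these 5 genes on either scale was 0.422, for RPL23 as deposited.

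RPL5 and RPL11, which travel with the 5S ribosomal RNA and with RPL23 can bind the p53 regulator MDM2, differed by -0.14 ± 0.15 and -0.15 ± 0.12 after normalization and by 0.20 and 0.18 as deposited, while RPL23 differed by 0.05 ± 0.12 and 0.40. RPS19 and RPS26, both mutated in Diamond-Blackfan anaemia, differed by -0.12 ± 0.10 and -0.04 ± 0.12, with 0.21 and 0.28 as deposited. RPS6, the substrate of the S6 kinases, differed by -0.10 ± 0.12, with 14.80, 14.62 and 14.67 against 14.63, 14.60 and 14.56, and by 0.21 ± 0.29 as deposited. RPL13A and RPS18, often used as reference genes, differed by -0.05 ± 0.11 and 0.00, and by 0.26 and 0.28 as deposited. The 0.00 of RPS18 is fixed by the normalization and is no measure of steadiness for these 2 genes. As deposited their SDs within Large White were 0.50 and 0.55, against 0.05 and 0.10 in the other breed.

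Of the dim genes below the filter, RPL30 had the largest negative difference of all. Its deposited values were 5.33, 5.68 and 5.34 in Large White and 3.35, 4.85 and 4.26 in Northeastern Indigenous boars. Of the 61 genes, RPL30 alone had no overlap on the deposited, quantile and median-centred scales alike, at -1.30 and -1.31 on the first 2. On these scales in turn, 708, 675 and 620 of the 5445 genes past the filter were lower without overlap. The share of all genes on the 3 scales at once was not counted. The RPL30 values lie below the filter and, without the filter, limma gave an adjusted p of 0.323. RPS15A differed by -0.46 after normalization, with a single low array, Northeastern Indigenous replicate 3 at 2.70 as deposited.

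Further probe sets of the same genes gave values that the choice of representative left aside. There were 23 that passed the filter, for 20 genes. Of the 15 with a mean log2 intensity of 10 or more, 13 had the same sign as the representative on all 3 Large White arrays as deposited, and 14 had a breed difference of the same sign. After quantile normalization 6 of the 15 agreed in sign. The RPS18 probe sets among the 15 could not agree, since normalization fixes the difference of their representative at 0. Of the 8 dimmer ones, 0 had the same sign on all 3 arrays as deposited. Their breed difference had the sign of the representative in 3 as deposited and in 7 after quantile normalization. The second probe set of RPL38, named after its values were seen because it lay furthest from its representative among these 15, differed by -1.22 as deposited while the representative differed by 0.23, with 12.52 on Large White replicate 2 against 10.13 to 11.05 on the other arrays.

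Ribosomal proteins that the symbol rule misses followed the others. FAU, which encodes a ribosomal protein fused to a ubiquitin-like domain, differed by 0.21 as deposited and -0.13 ± 0.12 after normalization. RACK1, a scaffold on the small subunit, differed by 0.13 and -0.24 ± 0.12. The 13 measured further genes with pyrimidine-rich message starts had a median of 0.20 as deposited and 0.00 after normalization, with 1 lower and 0 higher at an unadjusted p under 0.05, beside 11.4% and 9.40% of all genes, and 0 past the adjusted threshold. That gene was PABPC1, the poly(A)-binding protein, at 13.27, 11.79 and 12.87 as deposited in Large White against 11.74, 11.98 and 11.52, a quantile normalized difference of -1.13 ± 0.48 (adjusted p = 0.263). The high arrays of PABPC1, Large White replicates 1 and 3, were those of RPL3. NAP1L1, a histone chaperone, differed by -0.43 ± 0.19 after normalization and NACA, which guards nascent chains at the tunnel exit, by -0.64 ± 0.34.

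Genes that build ribosomes had positive medians on both scales. Of 51 measured nucleolar biogenesis genes, 38 had a positive difference after normalization, with a median of 0.29, beside 54.6% and 0.09 for all genes. As deposited 33 had one, with a median of 0.16, beside 51.0% and 0.02. At an unadjusted p under 0.05 there were 4 higher and 0 lower after normalization, or 3 and 0 as deposited, and 0 passed the adjusted threshold in limma. Of all genes 9.40% were higher after normalization and 8.03% as deposited, so the list's share of higher genes was under the background on both scales. NMD3, the export adaptor of the large subunit, read 8.85, 8.64 and 9.09 as deposited in Large White and 10.15, 9.58 and 9.81 in Northeastern Indigenous boars, without overlap. It differed by 0.98 as deposited and by 1.14 ± 0.26 after quantile normalization (SE; limma adjusted p = 0.224). On the quantile normalized scale GNL3, a nucleolar GTPase, differed by 1.08 ± 0.31 and UTP3, of the small-subunit processome, by 0.81 ± 0.25. DKC1, the pseudouridine synthase of ribosomal RNA, differed by 0.75 ± 0.28 on that scale. Among 10 genes of RNA polymerase I transcription the median after normalization was 0.22. TAF1D, of the promoter factor SL1, differed by 0.93 ± 0.27 after normalization (limma adjusted p = 0.224).

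A loose list of 22 genes around mTORC1 and S6 kinase signalling had 9 past the filter. MTOR, RPTOR, RPS6KB1 and LARP1 were not among these 9, so the list does not read out mTORC1 activity. The 9 genes had a median of -0.11 after normalization and -0.08 as deposited, with 0 past the adjusted threshold. At an unadjusted p under 0.05 there was 1 higher and 0 lower after normalization, and 1 of each as deposited. The shares over all genes were 9.40% higher and 11.4% lower after normalization and 8.03% and 13.1% as deposited. LARP4, which binds messages near the poly(A) tail, was the higher one, at 1.42 ± 0.38 after normalization (SE; limma adjusted p = 0.224). On the same scale AKT1S1, an inhibitor of mTORC1, differed by 1.38 ± 0.60 and RPS6KA1, a kinase of the wider RPS6K family, by -0.81 ± 0.38. AKT1S1 was lowest on Large White replicate 1 and stood at 10.32 on replicate 2 as deposited, beside 10.42 to 10.45 in the other breed.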

How the data were processed

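For every array the authors deposited intensities, unlogged, with a single value for a probe set; per the labels an array is 1 boar. The software behind the intensities is not given in the sources used here. Trimmed means near 500 on all 6 arrays (500.120 to 500.174) show a shared scale. Of 24123 probe sets, 124 controls were left out. Intensities were taken as log2, quantile normalized, filtered at the 40th percentile of mean deposited log2 (14399 probe sets, 5445 genes) and compared between breeds by limma 3.58.1 (R 4.3.3; eBayes with an intensity trend, 4 residual degrees of freedom, two-sided, Benjamini-Hochberg over all probe sets). The same fit was run as deposited. It was tested on simulated data. All 61 gene identifiers were found in the RefSeq table of Sscrofa11.1, with 0 symbols changed. No coordinates or sequences are printed, since no build is given. With 3 arrays per breed the precision is low. SDs describe the spread between these animals, with that of sampling and array mixed in. The p-values set a difference against a spread that limma draws towards a trend over all probe sets.

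Members, gene lists and alternatives were chosen with earlier results of these data known. Named genes are the 5 largest differences in each direction after normalization, 26 fixed genes of which 19 were measured, members without overlap on 3 scales, and up to 4 genes of each list by smallest p.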

Additional observations from a re-analysis of the deposited data

How the results depend on the processing

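Centring on the hybridization controls was chosen after seeing the data. Across the alternatives, calling 0 ribosomal protein genes held in each case except without Large White replicate 2, with a range of 0 to 2 when 1 array was left out. Probe sets called ranged from 0 to 4426 of 14399 and genes from 0 to 1855 of 5445 when 1 array was left out, the highest without Large White replicate 2. Median centring and centring on the ribosomal protein median each gave 1 probe set and 1 gene, and the mean of a gene's probe sets gave 1 gene. The 5 ribosomal protein genes at an unadjusted p under 0.05 became 1 as deposited, 0 with median centring, 2 with ribosomal protein centring, 8 with control centring, 3 without the filter, 3 with the robust prior, 3 with the mean of probe sets, 2 without the trend, 2 with the replicate block, and 1 to 7 with 1 array left out. The replicate block left 0 probe sets, 0 genes and 0 ribosomal protein genes called. No pairing by replicate number was seen: same-numbered animals had correlations of deviations of -0.023, -0.163 and -0.110, and Large White replicate 1 correlated best with Northeastern Indigenous replicate 2 (0.121). Deviations from a breed mean of 3 arrays are tied to one another, so these correlations cannot exclude a pairing. The median difference was 0.22 as deposited, 0.36 with median centring, -0.25 with control centring and -0.02 with ribosomal protein centring. It ran from -0.12 to -0.08 with 1 array left out and was -0.07 against Large White replicate 2 alone, where the lone array is assumed to vary like the others.

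As deposited the sign turned for RPSA (0.02), RPL22 (0.28), RPS27 (0.28), RPL36AL (0.08), RPLP0 (0.21), RPLP2 (0.18), RPS6 (0.21), RPL5 (0.20), RPL11 (0.18), RPS19 (0.21), RPS26 (0.28), RPL13A (0.26) and RPL19 (0.04). With median centring these 13 were 0.16, 0.42, 0.42, 0.22, 0.35, 0.32, 0.35, 0.34, 0.32, 0.35, 0.42, 0.40 and 0.18. It turned with control centring for RPLP1 (-0.03), RPL27 (-0.04), RPL10A (-0.11) and RPL23 (-0.07), with ribosomal protein centring for RPL22 (0.05), RPS26 (0.04) and RPL13A (0.03), with Large White replicates 1 and 3 both left out for RPL10A (-0.03), RPL36AL (0.10), RPLP2 (0.04) and RPL5 (0.05), and with the mean of probe sets for RPS27 (0.37) and RPL13A (0.04). With 1 array left out the ranges that cross 0 were RPS27L -0.01 to 0.48, RPLP2 -0.19 to 0.02, RPL13A -0.09 to 0.01, RPL23 -0.01 to 0.08 and RPL22 -0.08 to 0.02. RPL36AL ranged from -0.33 without Large White replicate 2 to -0.06 without replicate 3, and RPL5 from -0.24 without Large White replicate 2 to -0.05 without replicate 1. RPL3 ranged from -1.83 to -0.84 and RPS4X from -0.87 to -0.57. The causes were not tested. Low signal limits RPL26, RPL30 and RPS15A, which lie below the filter.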
